A study of Mus musculus with 6 samples.

Results

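The fibroblast growth factors (FGFs) and their receptors of the mouse prostate were examined as 10 genes, namely the ligand genes Fgf1, Fgf2, Fgf7, Fgf9, Fgf10 and Fgf18 and the receptor genes Fgfr1, Fgfr2, Fgfr3 and Fgfr4. They were taken by symbol from the 34745 genes of the deposited table, in which all 10 were found. Prostate tissue of male C57BL/6 mice was sequenced as RNA after 12 weeks, from 3 mice of each of 2 groups. Mice of the T + E2 group carried a subcutaneous pellet of testosterone and estradiol, exchanged for a new pellet every month. Mice of the CON group had only the skin incision and its closure, with the operation repeated likewise. The mice of both groups were 6 to 8 weeks old at the start, the labels name no transgene or gene deletion for them, and each library came from 1 mouse. The pellet held testosterone and estradiol at 10 parts to 1, so the effect of either hormone alone cannot be told apart from that of the other. A level in whole tissue does not say which cells made the transcript, and fewer cells of a type cannot be told apart from less RNA per cell.

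FGFs are secreted signals that bind heparan sulfate and the FGF receptors, which are tyrosine kinases at the cell surface, and the bound receptor passes the signal on through adaptor proteins to Ras and the MAP kinases. In the prostate, Fgf7 and Fgf10 are known as products of the stroma that act on the epithelium through a splice form of Fgfr2, and Fgf10 is needed for the gland to form. Fgf1 and Fgf2 lack a classical signal peptide, Fgf9 and Fgf18 signal mainly to receptors of mesenchymal cells, and Fgfr4 is best known in the liver, where it works with the co-receptor beta-klotho.

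Of the 10 genes, 8 had an entry among the RefSeq promoter windows of build GRCm38.p6. For Fgf7, Fgf10 and Fgfr2, whose groups of mice did not overlap, the 250 bases before the RefSeq start held no annotated exon, and they are shown here because both hormones of the pellet act through receptors that bind DNA. They are written 5′ to 3′ on the strand of the gene, with each match to the core of the estrogen response element, GGTCA or its reverse complement TGACC, in capitals. The Fgf10 window (chr13:118714449-118714698, plus strand), the Fgf7 window (chr2:126034408-126034657, plus strand) and the Fgfr2 window (chr7:130266809-130267058, minus strand) read as follows.
Fgf10: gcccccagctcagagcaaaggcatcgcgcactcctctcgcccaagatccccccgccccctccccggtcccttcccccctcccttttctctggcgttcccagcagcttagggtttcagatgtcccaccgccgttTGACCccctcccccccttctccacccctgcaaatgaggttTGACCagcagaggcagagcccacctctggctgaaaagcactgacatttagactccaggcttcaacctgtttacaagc
Fgf7: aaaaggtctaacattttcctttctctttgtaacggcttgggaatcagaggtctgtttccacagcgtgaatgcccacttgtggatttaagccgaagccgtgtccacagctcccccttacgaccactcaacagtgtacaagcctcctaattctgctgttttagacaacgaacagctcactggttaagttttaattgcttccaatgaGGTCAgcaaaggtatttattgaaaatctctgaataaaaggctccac
Fgfr2: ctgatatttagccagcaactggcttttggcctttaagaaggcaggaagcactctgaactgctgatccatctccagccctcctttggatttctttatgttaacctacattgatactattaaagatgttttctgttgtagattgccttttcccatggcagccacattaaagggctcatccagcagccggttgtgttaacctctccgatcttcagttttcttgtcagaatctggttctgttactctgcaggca

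The Fgf10 window held 2 matches to the estrogen core, starting 117 and 77 bases before the start, the Fgf7 window held 1 that starts 46 bases before it, and the Fgfr2 window held 0. Searched on both strands, this core occurred in 35.2% of all 32851 promoter windows of the same length, so a match is common. The core of the androgen response element, AGAACA or TGTTCT, was in none of the 3 windows and in 16.1% of all windows, and the GC box, GGGCGG or CCGCCC, was in the Fgf10 window once and in 32.7% of all windows. Among the windows not shown, those of Fgf2 and Fgfr4 held 0 matches to the estrogen core. The groups of these 2 genes did not overlap either, and their windows held annotated exon bases. Fgf9 and Fgf18 also had 0 such matches, and Fgfr3, whose groups overlapped, had 1 in 1 of its windows. A match describes the letters of its window and is not a site of binding. The Fgf10 and Fgfr2 windows lie within the annotated spans of these genes, away from their outer 5′ ends. Each therefore belongs to a single RefSeq start, and other annotated starts are not shown.

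In these libraries 14816146 to 16555549 reads were counted on genes per mouse, and 3 counts, taken as the least that can be told from none, were worth 0.181 to 0.202 CPM (counts per 1000000 counted reads) before scaling, a limit that covers counting error only. The CPM given for single genes and marker sums are scaled by the TMM method. Pbsn and Tgm4, secretory genes of the prostate, were present in every mouse, as were the fibroblast and smooth muscle markers, so the labelled tissue was borne out by its markers. The libraries of CON 2 and of T + E2 2 stood apart by seminal vesicle genes, with a summed level over 8 markers of 10325.5 and 643 CPM against at most 4.11 CPM in the other mice, and CON 2 also had the highest skeletal muscle and adipose marker sums. The log2 differences of the FGF genes are therefore also given without these 2 mice where that moved them by over 1.5 times.

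**Figure D1:**
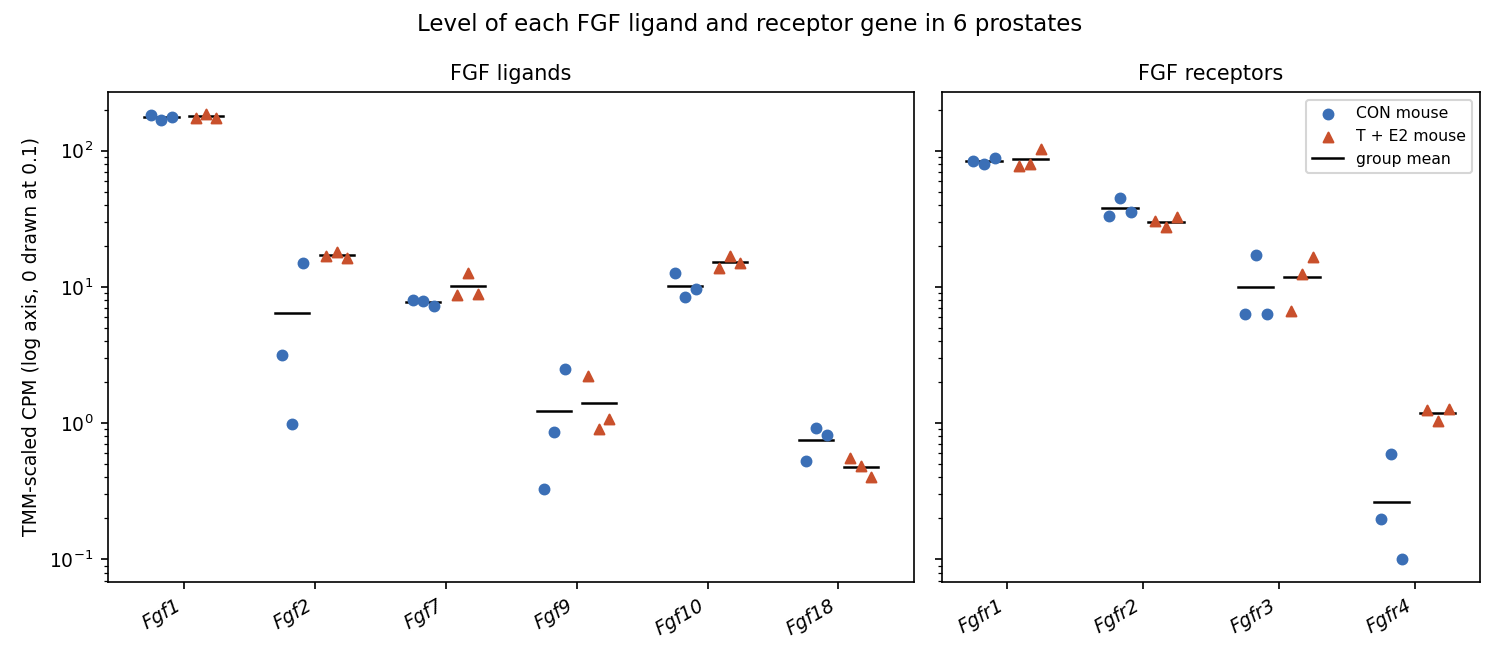
Level of the 6 FGF ligand genes (left) and 4 FGF receptor genes (right) in each of 6 prostates, in TMM-scaled CPM on a log axis. Circles are CON mice, triangles are T + E2 mice, lines are group means and a value of 0 is drawn at 0.1; Fgf1 and Fgfr1 were the highest ligand and receptor, and Fgf2 was spread from 0.986 to 15 in CON mice.

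None of the 9 genes that could be tested passed between the groups (edgeR's quasi-likelihood test, Benjamini-Hochberg adjusted p under 0.05 over all tested genes). Of these 9, 0 were upregulated and 0 were downregulated, where 10.4% of the 15580 tested genes were upregulated and 9.25% were downregulated, and 4.27% and 3.38% were DEGs (also over 1 on the log2 scale) in these directions. At an unadjusted p under 0.05 there were 3 of the 9, namely Fgf10, Fgfr2 and Fgfr4, against 34.5% of all tested genes. DESeq2 called 1, Fgf10, and limma on log2(FPKM + 1) called 1, Fgfr4, while without both CON 2 and T + E2 2 edgeR called 0. The groups did not overlap for 4 genes that were higher in T + E2 mice (Fgf2, Fgf7, Fgf10 and Fgfr4) and 1 that was lower (Fgfr2), where 20% and 20.7% of all tested genes were of these kinds. The median log2 difference was 0.25 over the 9 genes and -0.002 over all tested genes.

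**Figure D2:**
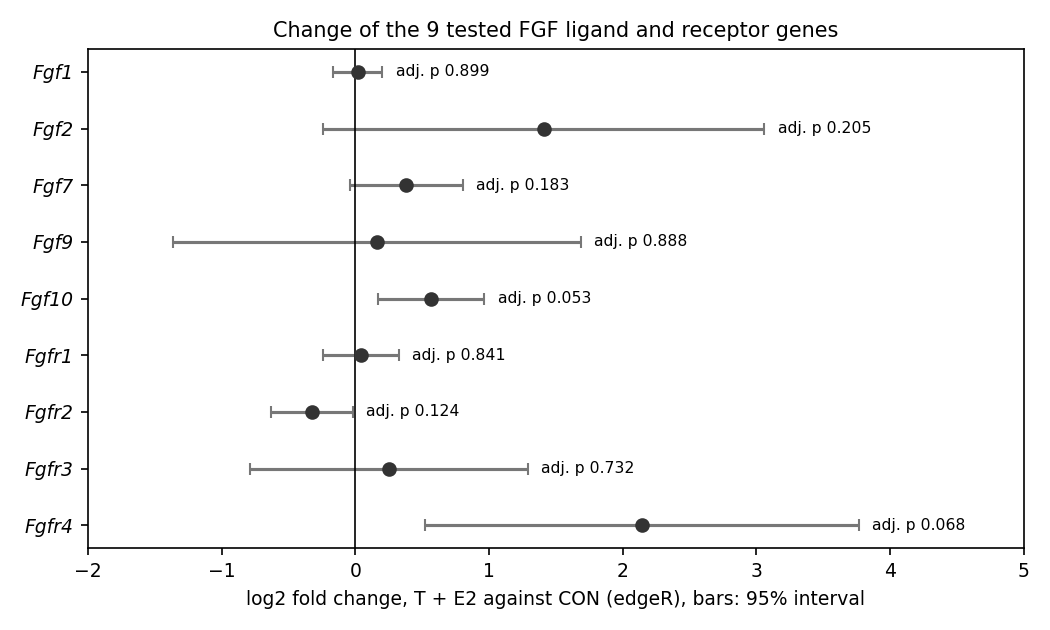
Log2 fold change of the T + E2 group against the CON group for the 9 tested genes, with 95% intervals from edgeR and the adjusted p beside each. The intervals of Fgf10 (0.17 to 0.96), Fgfr4 (0.52 to 3.77) and Fgfr2 (-0.64 to -0.02) leave out 0, and all adjusted p-values exceed 0.05.

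Fgf10 (ENSMUSG00000021732, chr13:118669791-118792115 in the deposited table, build GRCm38), the stromal ligand of the epithelial Fgfr2 form, came nearest to the threshold. Its counts were 190, 129 and 153 in CON mice and 199, 276 and 223 in T + E2 mice, or 12.6, 8.48 and 9.62 CPM and 13.8, 16.8 and 14.9 CPM. Every T + E2 mouse lay above every CON mouse, with CON 1 close below T + E2 1. The mean was 10.2 ± 2.12 CPM in CON mice and 15.2 ± 1.54 CPM in T + E2 mice (SD, n = 3), a log2 difference of 0.57 (SE 0.17, adjusted p = 0.053), which did not pass. With DESeq2 the adjusted p was 0.0457, and without CON 1 it was 0.0212. Without both CON 2 and T + E2 2 the difference was 0.37 (adjusted p = 0.296).

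Fgf7 (ENSMUSG00000027208, chr2:126034658-126091185), also called keratinocyte growth factor, is a close relative of Fgf10. Its levels were 8.08, 7.82 and 7.29 CPM in CON mice and 8.72, 12.7 and 8.81 CPM in T + E2 mice. The groups did not overlap, but only T + E2 2 stood well above the CON mice. The log2 difference was 0.38 (SE 0.18, 95% interval -0.04 to 0.81, adjusted p = 0.183), and it was 0.18 without T + E2 2 and 0.19 without both CON 2 and T + E2 2.

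Fgf2 (ENSMUSG00000037225, chr3:37348346-37410108), a growth factor of fibroblasts and endothelium, had the widest spread of the abundant ligands. Its counts were 48, 15 and 238 in CON mice and 244, 295 and 243 in T + E2 mice. The T + E2 mice were alike at 16.9, 18.0 and 16.2 CPM, CON 1 and CON 2 were far below at 3.18 and 0.986 CPM, and CON 3 was just under the T + E2 mice at 15 CPM. The log2 difference of 1.41 (SE 0.72, 95% interval -0.24 to 3.06, adjusted p = 0.205) rested on which CON mice were used. Without CON 3 it was 3.03 with an adjusted p of 0.00529, without CON 2 it was 0.90 (adjusted p = 0.288), and without both CON 2 and T + E2 2 it was 0.86 (adjusted p = 0.444).

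Exons of Fgf2 overlap those of Nudt6, a gene on the opposite strand long known as its antisense partner, over 640 of 6782 bases (9.4%). The library kit does not mark strand, so reads in that stretch cannot be assigned. Nudt6 had 102, 81 and 110 counts in CON mice and 80, 85 and 61 in T + E2 mice, without the gap that set CON 1 and CON 2 apart in Fgf2. The other overlapping genes, Gm43439 at Fgf2, Gm16263 at Fgf10, Gm16159 at Fgfr1 and G630022F23Rik at Fgfr3, had at most 2 counts in any mouse.

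Fgf1 (ENSMUSG00000036585, chr18:38838673-38929404), which binds all FGF receptors, was the most abundant ligand and nearly level across the mice. It stood at 183, 169 and 176 CPM in CON mice and 175, 185 and 175 CPM in T + E2 mice. The groups overlapped, and the log2 difference was 0.02 (SE 0.08), with a 95% interval from -0.17 to 0.20. Of the 9 genes it had the narrowest interval, and its sign changed with total-count scaling (-0.02) and without both CON 2 and T + E2 2 (-0.038).

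Fgf9 (ENSMUSG00000021974, chr14:58070547-58112337) and Fgf18 (ENSMUSG00000057967, chr11:33117430-33147400) were rare transcripts. Fgf9 had 5, 13 and 40 counts in CON mice and 32, 15 and 16 in T + E2 mice. Its groups overlapped fully, and the interval of its log2 difference, from -1.36 to 1.69, spans large changes in both directions. Fgf18 had 8, 14 and 13 counts in CON mice and 8, 8 and 6 in T + E2 mice, too few to enter the test. CON 1 and the T + E2 mice had like counts, and a difference in Fgf18 was not detectable at this depth.

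Among the receptors, Fgfr1 (ENSMUSG00000031565, chr8:25513654-25575714), the main receptor of mesenchymal cells, did not differ beyond the spread between mice. It stood at 84.3, 79.8 and 87.7 CPM in CON mice and 77.7, 79.5 and 102 CPM in T + E2 mice. The groups overlapped, T + E2 3 was the highest, and the log2 difference was 0.04 (SE 0.12, 95% interval -0.24 to 0.32).

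Fgfr2 (ENSMUSG00000030849, chr7:130162451-133123350), the receptor that the epithelium uses for Fgf7 and Fgf10, was lower in each T + E2 mouse than in each CON mouse. Its counts were 499, 680 and 563 against 438, 449 and 487, or 33.0, 44.7 and 35.4 CPM against 30.3, 27.3 and 32.5 CPM. CON 1 and T + E2 3 nearly touched and CON 2 was the highest. The log2 difference was -0.33 (SE 0.13, adjusted p = 0.124), and -0.12 (adjusted p = 0.588) without both CON 2 and T + E2 2. The span given for the gene in the table, 2960900 bases, reaches into Ctbp2 on the same strand, with which it shares 314 exon bases (3.0%), and Ctbp2 had 636, 665 and 677 counts in CON mice and 578, 589 and 607 in T + E2 mice. Counts per gene do not separate the splice forms of the receptors, which decide the ligands they bind.

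Fgfr3 (ENSMUSG00000054252, chr5:33721674-33737068), known as a receptor of urothelium and cartilage, varied more between mice of a group than between the groups. It stood at 6.36, 17.2 and 6.35 CPM in CON mice and 6.64, 12.4 and 16.5 CPM in T + E2 mice. CON 2, T + E2 2 and T + E2 3 were high and the other mice were low in both groups. The log2 difference was 0.25 (SE 0.45, 95% interval -0.79 to 1.29), and 0.86 (adjusted p = 0.271) without both CON 2 and T + E2 2. Skeletal muscle markers were also highest in CON 2 and T + E2 3, with 307 and 261 CPM summed over 7 genes against 76.8 to 167 in the others, including 96.5 in T + E2 2. Summed urothelium markers stood at 423, 643 and 513 CPM in CON mice and 1702.2, 1586.9 and 1374.3 CPM in T + E2 mice. Their sum was highest in T + E2 1, where Fgfr3 was low. Most of it was Upk1a, at 1422.5 CPM in that mouse, and Upk1b was also highest there. The rarer Upk2, Upk3a and Upk3b were highest in T + E2 2, where Fgfr3 was high, at 4.99, 6.03 and 8.83 CPM. The part of either tissue in Fgfr3 was not tested.

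Fgfr4 (ENSMUSG00000005320, chr13:55152640-55168759) was the rarest receptor and had the largest fitted difference. Its counts were 3, 9 and 0 in CON mice and 18, 17 and 19 in T + E2 mice, or 0.199, 0.591 and 0 CPM against 1.25, 1.04 and 1.27 CPM. The T + E2 mice were alike and above all CON mice, of which CON 1 and CON 3 were at or under the limit of 3 counts. The log2 difference was 2.15 (SE 0.70, 95% interval 0.52 to 3.77, adjusted p = 0.068). It was 3.50 (adjusted p = 0.0248) without CON 2, 1.56 (adjusted p = 0.0992) without CON 3 and 3.59 (adjusted p = 0.0585) without both CON 2 and T + E2 2.

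Between genes, levels were compared per length with the deposited FPKM. Fgf1 was the highest ligand in every mouse, with a mean of 16.4 FPKM in the CON prostates and 16.1 FPKM with T + E2. Fgf10 followed at 2.06 and 2.98 FPKM and Fgf7 at 1.42 and 1.80 FPKM. Fgf2 stood at 0.734 and 1.93 FPKM, Fgf18 at 0.644 and 0.398 FPKM and Fgf9 at 0.239 and 0.264 FPKM. In the CON mice Fgf2 overlapped in level with Fgf7, Fgf18 and Fgf9, in T + E2 mice it overlapped with Fgf7, and Fgf9 also overlapped with Fgf18 in both groups. The receptors followed the order Fgfr1 (4.75 and 4.78 FPKM), Fgfr2 (2.86 and 2.22), Fgfr3 (0.734 and 0.852) and Fgfr4 (0.0673 and 0.291), with no overlap between neighbours within either group. The lengths that the FPKM imply are 1.0 to 1.99 times the merged exons of GENCODE M21, with 1.99 for Fgf1 and 1.09 for Fgf10. With merged exons Fgf10 and Fgf7 overlapped, at 1.89 to 2.79 and 2.23 to 2.53 CPM per kilobase in CON mice, so the order of this pair depends on the length used.

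**Figure D3:**
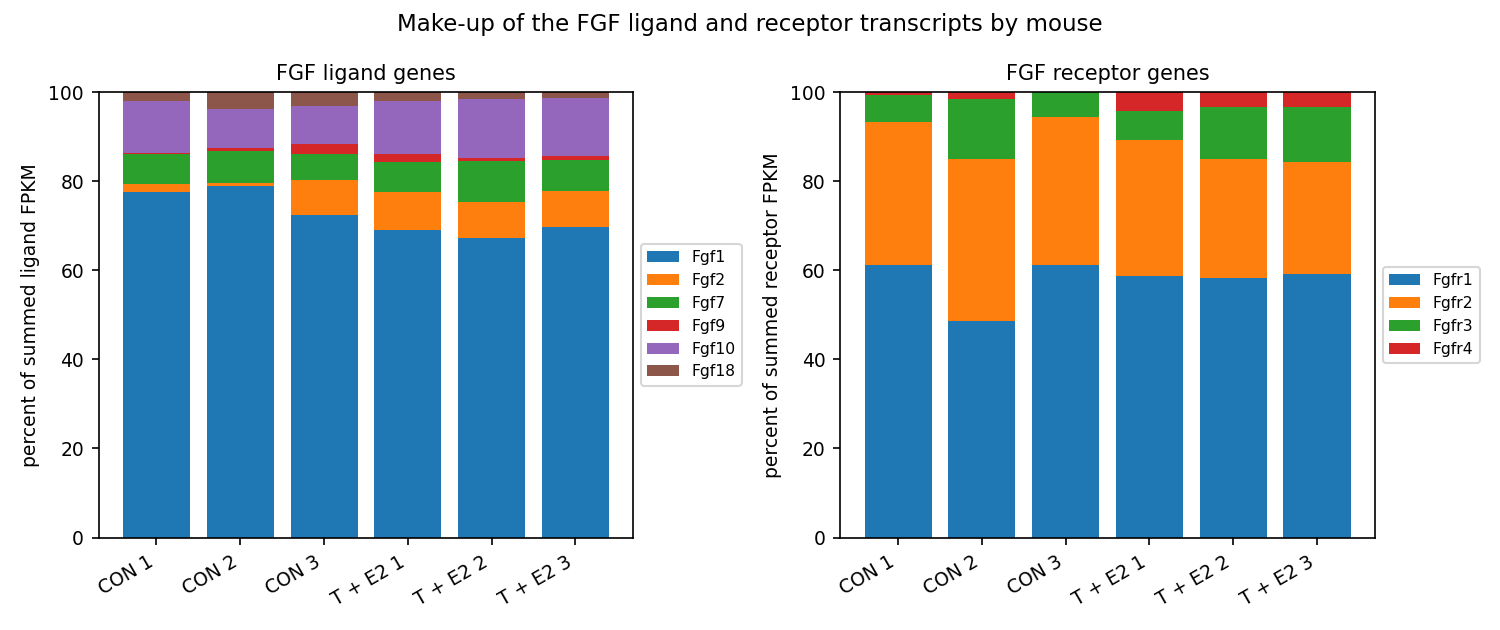
Share of each gene in the summed FPKM of the 6 FGF ligand genes (left) and of the 4 FGF receptor genes (right), in percent, for each mouse. Fgf1 made 72.5 to 78.9% of the ligand sum in CON mice and 67.2 to 69.7% in T + E2 mice, and Fgfr2 made 32.1 to 36.4% and 25.2 to 30.6% of the receptor sum.

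As shares of the summed ligand FPKM, Fgf1 was lower in every T + E2 mouse, at 76.3 ± 3.39% in the CON prostates and 68.7 ± 1.34% with T + E2 (SD, n = 3). Fgf2 took 3.34 ± 3.85% and 8.23 ± 0.136%, and Fgf10 took 9.58 ± 1.73% and 12.6 ± 0.743%, both without overlap. Fgf18 took 3.03 ± 0.938% and 1.70 ± 0.279%, lower without overlap, but its groups overlapped with merged exons as lengths. The ligand sum itself was 21.5 ± 1.10 and 23.5 ± 1.46 FPKM, without overlap here and with overlap when merged exons were used as lengths. Its difference of 2.06 FPKM was 1.27 FPKM without T + E2 2 and 0.64 FPKM without both CON 2 and T + E2 2. The receptor sum was 8.42 ± 0.884 and 8.15 ± 1.43 FPKM, with overlap. Of the summed receptor FPKM, Fgfr1 took 57.0 ± 7.34% and 58.6 ± 0.484%, Fgfr2 33.9 ± 2.23% and 27.5 ± 2.79%, Fgfr3 8.41 ± 4.42% and 10.2 ± 3.22%, and Fgfr4 0.749 ± 0.807% and 3.61 ± 0.503%. The log2 ratio of Fgfr1 to Fgfr2 was 0.744 ± 0.286 in the CON prostates and 1.09 ± 0.147 with T + E2, a difference of 0.35 without overlap, and 0.17 without both CON 2 and T + E2 2. Each of these values without overlap had an exact two-sided permutation p of 0.1, the smallest that 3 against 3 mice can give, and 0.163 after adjustment over 13 values.

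The markers of stromal cells were examined beside these levels, where 10.4% of all tested genes were upregulated and 9.25% were downregulated. Over 10 fibroblast markers the sum was 1753.8 to 1885.9 CPM in CON mice and 1813.3 to 2173.5 CPM in T + E2 mice, with 0 of 10 upregulated and 1 downregulated. Over 8 smooth muscle markers it was 4259.9 to 5278.9 and 3739.6 to 4079.9 CPM, with 0 upregulated and 3 downregulated, Acta2 among them. Dcn, a proteoglycan of fibroblasts, was the highest fibroblast marker (867 and 1091.3 CPM on average). Myh11, the smooth muscle myosin, was the highest smooth muscle marker (1632.7 and 1429.6 CPM). Dcn made a large part of the fibroblast sum, with a log2 difference of 0.33 (edgeR adjusted p = 0.237). The median log2 difference over the 10 fibroblast markers was -0.14. The fibroblast sum and the ratios to it therefore lean on Dcn and do not give the amount of fibroblasts.

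Taken as a log2 ratio to the fibroblast sum, Fgf10 differed by 0.50, Fgf7 by 0.27 and Fgf2 by 2.15 between the groups, and to the smooth muscle sum by 0.88, 0.66 and 2.54. These 3 of the 9 genes with counts in every mouse had groups without overlap under both ratios (exact permutation p = 0.1, adjusted p = 0.3). With the median of the fibroblast markers in place of their sum, 2 genes were apart. In CPM, 20% of all tested genes were higher and 20.7% lower without overlap, so such a count is common. The share of all genes under these ratios was not computed. Fgfr2 overlapped under both, with differences of -0.40 and -0.02.

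Marker genes of other tissues also passed the test, where 10.4% of all tested genes were upregulated and 9.25% were downregulated. Luminal epithelium markers summed to 34722.6 to 47760.1 CPM in CON mice and 7385.5 to 9302.6 CPM in T + E2 mice, with 2 of 8 upregulated and 3 downregulated. Most of this sum was the secretory genes Tgm4 (mean 23479.3 and 3129.4 CPM) and Pbsn (14177.0 and 1444.5 CPM), and Krt18 also fell (896 and 616 CPM). Epcam (404 and 916 CPM) and Cdh1 (401 and 507 CPM) rose, so the sum does not give the amount of luminal epithelium. Urothelium markers summed to 423 to 643 and 1374.3 to 1702.2 CPM, with 3 of the 4 tested upregulated. Most of that sum was Upk1a (mean 374 and 1305.8 CPM). Genes typical of epididymis and vas deferens summed to 0.795 to 2.3 and 197 to 269 CPM, with 4 of the 4 tested upregulated. Most of their sum in T + E2 mice was Spink11 (mean 0.69 and 102 CPM) and Wfdc8 (0.346 and 96.1 CPM). Lcn5, Defb20 and Rnase9 of that list had no count in any mouse. Crisp1 had 2, 13 and 0 counts in CON mice and 0, 3 and 0 in T + E2 mice. The urothelium and epididymis sums also do not give the amount of these tissues. Nerve and Schwann cell markers stood at 81.3 to 117 and 47.0 to 72.8 CPM (2 of 5 downregulated), basal epithelium markers stood at 168 to 277 and 271 to 339 CPM (1 of 5 upregulated), and endothelial markers at 94.2 to 130 and 118 to 146 CPM and immune cell markers at 124 to 243 and 218 to 354 CPM, with none passing. Seminal vesicle, skeletal muscle and adipose markers had none passing as well. The part of these tissues in the levels of the FGF genes was not tested.

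By pattern over the 6 mice (Euclidean distance of centred log2 CPM), the genes most like Fgf10 were C1qc (distance 0.11), Rbpsuh-rs3 (0.13) and Mbd4 (0.15). C1qc, a complement component of macrophages, had 603, 423 and 509 counts in CON mice and 627, 953 and 709 in T + E2 mice. The genes most like Fgfr2 were Ehd2 (0.11), Plekhf1 (0.13) and Usp20 (0.14). Those nearest to Fgfr4 were Cpne5 (0.81), Pcdh17 (0.88) and Lrrc7 (0.95). These lay farther from it than the neighbours of the other 2 genes.

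The other genes of the pathway were taken from lists of 92 genes, of which 72 could be tested. Of these, 7 were upregulated (9.7%) and 11 were downregulated (15.3%), 2 and 2 of them as DEGs, and the median log2 difference was -0.07. Over all tested genes 10.4% were upregulated and 9.25% downregulated, and 4.27% and 3.38% were DEGs, so the upregulated share was near the background. The DEGs were the co-receptor Klb, the binding protein Fgfbp1 and the immediate early genes Egr1 and Fos.

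**Figure D4:**
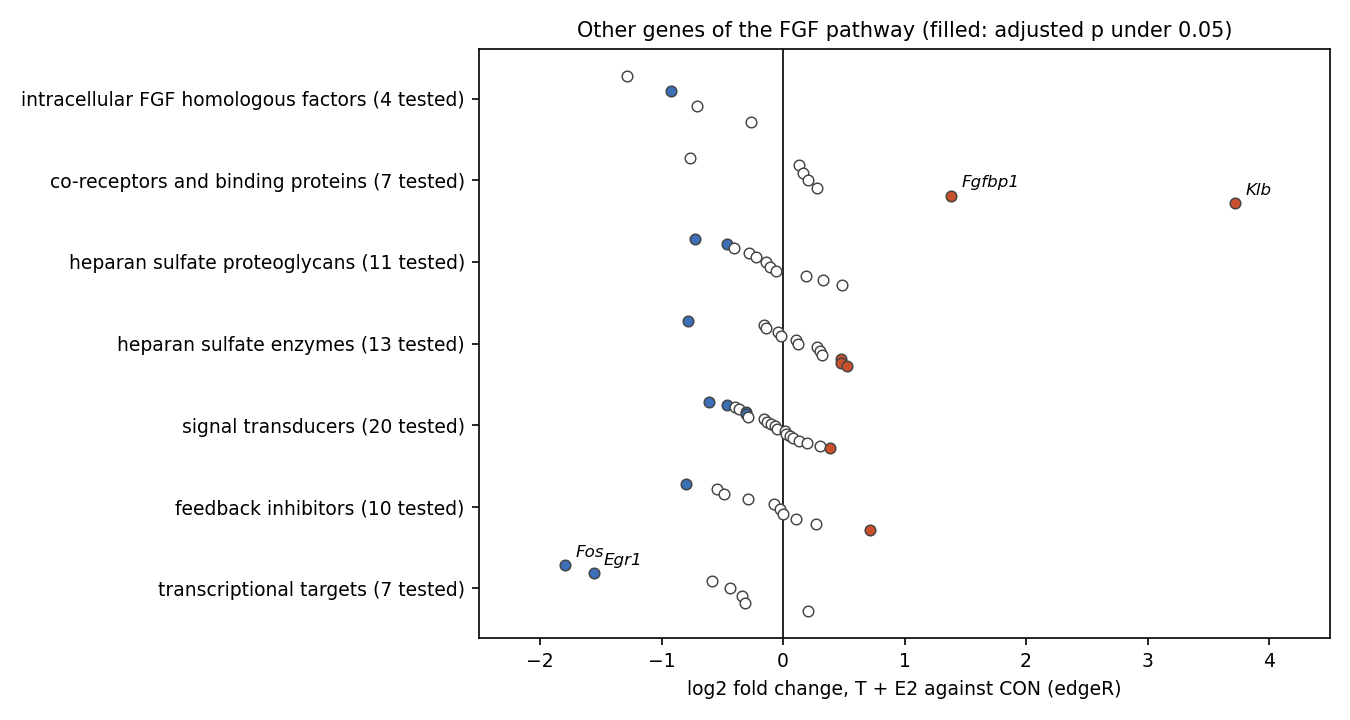
Log2 fold change (edgeR) of the T + E2 group against the CON group for the 72 tested genes of the other FGF pathway lists, 1 point per gene and 1 row per list. Filled points passed at an adjusted p under 0.05 (7 upregulated, 11 downregulated), and the 4 DEGs are named.

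The remaining 12 secreted ligands were at or near the detection limit. Of these, 11 had at most 3 counts in every mouse and 7 had no count in any, among them the endocrine ligands Fgf15 and Fgf23. Fgf21, an endocrine ligand of the liver, had 3, 0 and 0 counts in CON mice and 0, 0 and 1 in T + E2 mice. Fgf17 had 1, 3 and 7 counts in CON mice and none in T + E2 mice. Of the 4 intracellular FGF homologous factors, which bind sodium channels in place of receptors, Fgf13 was downregulated from 4.91 ± 0.205 to 2.59 ± 0.661 CPM (log2 difference -0.92, adjusted p = 0.0299), where summed nerve and Schwann cell markers stood at 81.3 to 117 and 47.0 to 72.8 CPM and their part was not tested. This call passed in 8 of 15 settings and was lost without both CON 2 and T + E2 2 (adjusted p = 0.187). Fgf12 was at 25, 29 and 24 against 5, 17 and 10 counts (adjusted p = 0.0526).

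Among the co-receptors and binding proteins, 2 of 7 were upregulated and 0 were downregulated, against 10.4% and 9.25% of all tested genes. Klb, which encodes the beta-klotho that some endocrine FGFs need to bind Fgfr1 and Fgfr4, had 7, 13 and 8 counts in CON mice and 122, 136 and 114 in T + E2 mice. Its mean rose from 0.607 ± 0.215 to 8.11 ± 0.442 CPM, a log2 difference of 3.72 (SE 0.27, adjusted p = 9.09e-05). The groups lay far apart and the T + E2 mice were alike. Kl, the alpha form, had 0, 1 and 3 counts and then none. Fgfbp1, a carrier that frees FGFs from the matrix, had 92, 109 and 73 counts in CON mice and 233, 292 and 189 in T + E2 mice, a log2 difference of 1.38 (SE 0.21, adjusted p = 0.003). Fgfrl1, a receptor without the kinase, stood at 136, 145 and 154 against 151, 187 and 137 counts. Summed urothelium and epididymis markers were higher in the same mice as Klb and Fgfbp1 (423 to 643 against 1374.3 to 1702.2 CPM and 0.795 to 2.3 against 197 to 269 CPM). In T + E2 mice the sums were mostly Upk1a and mostly Spink11 and Wfdc8. The part of these tissues in the changes of Klb and Fgfbp1 was not tested.

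**Figure D5:**
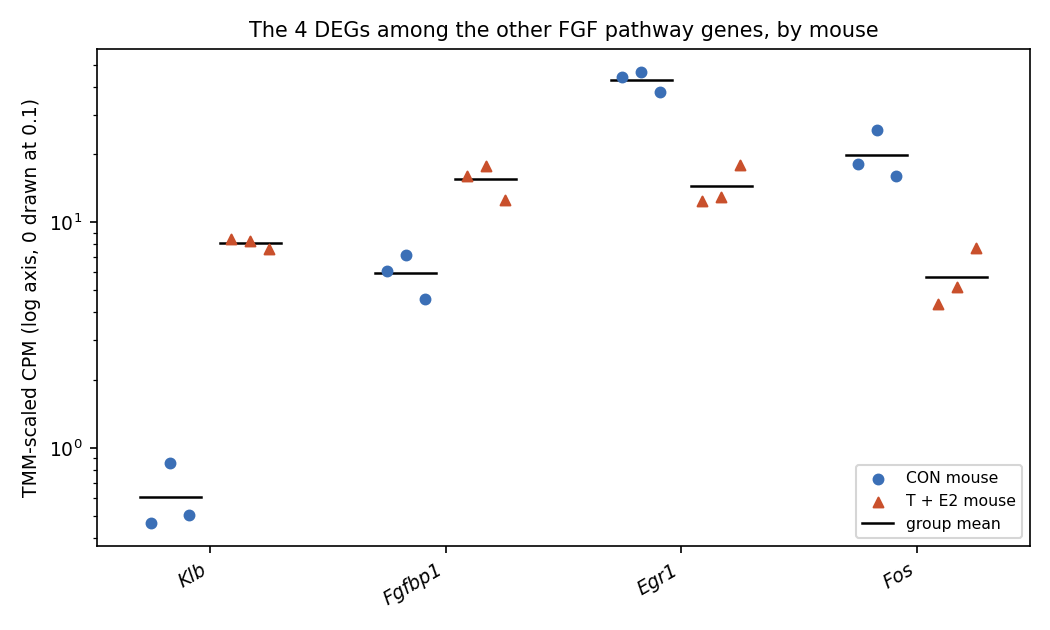
Level of the 4 DEGs among the other FGF pathway genes in each mouse, in TMM-scaled CPM on a log axis. Circles are CON mice, triangles are T + E2 mice and lines are group means; Klb and Fgfbp1 were higher and Egr1 and Fos lower in every T + E2 mouse.

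Heparan sulfate holds the FGFs at the cell surface and in the matrix. Of its 11 tested core proteins, 0 were upregulated and 2 were downregulated, namely the glypicans Gpc3 (31.1 ± 7.65 to 18.8 ± 1.21 CPM, log2 difference -0.72, adjusted p = 0.0268) and Gpc1 (-0.46, adjusted p = 0.0358). Gpc1 shares 977 exon bases (18.9%) with Ankmy1 on the opposite strand, which had 10 to 31 counts per mouse. Of 13 enzymes that make or trim heparan sulfate, 3 were upregulated and 1 was downregulated. For core proteins and enzymes alike, the shares over all tested genes were 10.4% upregulated and 9.25% downregulated. Ext1, which extends the chain, rose from 31.2 ± 1.30 to 44.9 ± 1.90 CPM (log2 difference 0.53, adjusted p = 0.00447). Sulf2, which removes sulfate, rose by 0.47 (adjusted p = 0.0136), and Hs2st1, which adds it, by 0.48 (adjusted p = 0.0189). The downregulated enzyme was Hs3st3b1, a sulfotransferase (-0.78, adjusted p = 0.0412), chosen for naming after its values were seen.

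Of the 20 signal transducers, 1 was upregulated and 4 were downregulated, against 10.4% and 9.25% of all tested genes. Frs2, the adaptor that docks on the FGF receptors, rose from 41.1 ± 2.13 to 53.8 ± 1.00 CPM (log2 difference 0.39, adjusted p = 0.0154). Mapk3, the kinase ERK1, fell from 259 ± 13.9 to 170 ± 12.9 CPM (-0.61, adjusted p = 0.00354). Shc1, another adaptor, fell by 0.31 (log2, adjusted p = 0.0366), and Gab1, a docking protein, by 0.46 (log2, adjusted p = 0.0473), and either call passed in only 7 of 16 settings. Among 10 tested feedback inhibitors, Spred3 rose by 0.72 (adjusted p = 0.0224) and Dusp5, a phosphatase of the MAP kinases, fell by 0.80 (log2, adjusted p = 0.0149). Spry1, an inhibitor induced by FGF signals, had 465, 613 and 684 counts in CON mice and 407, 349 and 436 in T + E2 mice (adjusted p = 0.0535).

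Of 7 tested genes that FGF signals are known to induce, 0 were upregulated and 2 were downregulated, against 10.4% and 9.25% of all tested genes. Egr1 stood at 44.0, 46.5 and 37.9 CPM in CON mice and 12.5, 13 and 18.0 CPM in T + E2 mice (log2 difference -1.56, SE 0.16, adjusted p = 5.26e-04). Fos stood at 18.1, 25.6 and 16.0 CPM and 4.36, 5.18 and 7.67 CPM (-1.79, SE 0.25, adjusted p = 0.00243). Both are immediate early genes that many signals besides FGFs induce. The ETS factors Etv4 and Etv5, which are tied more closely to FGF signals, had 83, 100 and 123 against 73, 78 and 92 counts and 104, 108 and 120 against 72, 91 and 98 counts, and neither passed (adjusted p = 0.301 and 0.205).

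Over the 16 settings tried, the main test included, Klb, Fgfbp1, Egr1, Fos and Mapk3 passed in every setting. Ext1 passed in 15, Dusp5 in 14, Sulf2 and Frs2 in 12, Hs2st1 in 11, Gpc3 and Spred3 in 10, Gpc1 and Hs3st3b1 in 9 and Shc1 and Gab1 in 7, while Fgf13 passed in 8 of 15. Without both CON 2 and T + E2 2, 6 genes of the pathway lists passed, against 18 with all mice.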

How the data were processed

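RNA of prostate tissue from 3 CON and 3 T + E2 mice was made into paired-end libraries with a kit that does not mark strand. The submitters' processing notes name Bowtie2, TopHat and HTSeq without versions, and the genome build and the strand setting are not given in the sources used here. The authors deposited whole-number read counts per gene, without normalization, and FPKM computed from them. Table coordinates were compared with GENCODE M21 (GRCm38).

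Counts were tested with edgeR 4.0.16 in R 4.3.3 after filterByExpr (minimum count 10, minimum total 15) and TMM scaling (factors 0.956 to 1.027), by the quasi-likelihood test with Benjamini-Hochberg adjustment over 15580 genes. The biological coefficient of variation was 18%. Alternatives used DESeq2 1.42.0 and limma 3.58.1 on log2(FPKM + 0.1) and log2(FPKM + 1). Ratios and shares were compared by exact two-sided permutation tests, which cannot go below p = 0.1 with 3 mice in each group. The procedure was tested on simulated data. Mice of a group differed by more than counting error (chi-square per degree of freedom 16.7 to 36.4), and each was kept as a replicate.

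Members and lists were chosen with earlier results of these data known. Named genes are all members, the DEGs and up to 3 genes of smallest adjusted p per pathway list, the leading markers, the 3 genes nearest in pattern to the 3 members of smallest adjusted p, and genes overlapping members; others named for context were chosen after their values were seen. Promoters are from RefSeq. Protein sequences were not used here. A gene of the pathway lists is not reported here by name.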

Additional observations from a re-analysis of the deposited data

How the results depend on the processing

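The alternatives were median-of-ratios (RLE) and total-count scaling, no filter on low counts, an FPKM of at least 1 in 3 samples, limma, DESeq2, a replicate block and each mouse left out; leaving out both CON 2 and T + E2 2, and merged exons as lengths, were chosen after seeing the data. Of the FGF ligands and receptors 0 passed in the main test, 1 with DESeq2, 1 with limma on log2(FPKM + 1) and 0 to 1 with 1 mouse left out (Fgf10 without CON 1, Fgfr4 without CON 2, Fgf2 without CON 3). Of the pathway genes 18 passed in the main test, 6 to 15 with 1 mouse left out (6 without CON 3) and 6 without both CON 2 and T + E2 2. With the replicate number as a block 9 pathway genes and 0 members passed. Same-numbered mice of the 2 groups deviated with correlations of -0.052, 0.028 and 0.046, and 1 of 6 mice correlated best with its own number. No pairing by number was seen, though so few mice cannot exclude one. Members apart relative to stromal markers numbered 3, or 3 to 6 with 1 mouse left out, and 2 with the median of the markers.

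The sign turned for Fgf1 (-0.02 with total-count scaling and with log2(FPKM + 0.1), -0.019 with log2(FPKM + 1), -0.038 without both CON 2 and T + E2 2, -0.012 to 0.045 with 1 mouse left out), Fgfr1 (-0.006 and -0.003 with limma, -0.095 to 0.114 with 1 mouse left out, lowest without T + E2 3), Fgfr3 (-0.063 without T + E2 3 to 0.897 without CON 2) and Fgf9 (-0.323 without T + E2 1 to 1.218 without CON 3). The log2 ratio of Fgfr1 to Fgfr2 was 0.351 higher, and 0.186 to 0.444 with 1 mouse left out. The cause was not tested. Leaving a mouse out also leaves fewer samples. Low counts limit Fgf9, Fgf18 and Fgfr4.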

Other observations

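Among all tested genes, that nearest to Fgf2 in pattern over the 6 mice was Tlr4, a receptor for bacterial lipopolysaccharide, at a distance of 0.82; it was looked up after the values of Fgf2 were seen. Tlr4 had 47, 25 and 181 counts in CON mice and 261, 391 and 291 in T + E2 mice, so CON 3 was also its highest CON mouse, and its log2 difference was 1.92 (SE 0.57, edgeR adjusted p = 0.049). The next in pattern, Gm8909 and Igkv6-14, lay at distances of 1.35 and 1.51.

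Hspg2, the core protein perlecan of basement membranes and an FGF carrier, had 3093, 3333 and 3296 counts in CON mice and 2521, 2101 and 2599 in T + E2 mice (log2 difference -0.41, edgeR adjusted p = 0.0603), and Ccnd1, a cyclin that growth factors induce, had 1078, 1754 and 1886 against 976, 1087 and 1040 counts (-0.59, adjusted p = 0.0569). Both had groups that did not overlap, as had 20.7% of all tested genes in this direction, and both were chosen after their values were seen. For Ccnd1 the groups nearly touched, at 71.4 CPM in CON 1 and 69.4 CPM in T + E2 3.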
